A study of Mus musculus with 12 samples.

Results

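The NRF2 antioxidant genes examined in this mouse model of psoriasis were Nfe2l2, Keap1, Slc7a11, Gclc, Gclm, Txnrd1, Srxn1 and Hmox1. These 8 genes were selected by symbol, as members of a known pathway, from the 18505 genes of the expression table by a rule that used no measured value, although earlier results of these data were known when it was made. In the psoriasis-like lesions of the IMQ + NS group, 6 of the 8 genes had a higher expression than in control skin. Keap1 had a lower one, and Nfe2l2 did not pass the test. Of all tested genes, 29.0% were higher and 27.1% lower in that comparison. The cystine transporter gene Slc7a11 rose from 0.102 ± 0.0719 to 6.48 ± 2.05 FPKM (SD, n = 4 in each group), and Gclc rose from 9.78 ± 3.55 to 29.8 ± 1.82 FPKM. None of the 8 genes passed the test between lesions treated with BZLF and lesions treated with NS. Of all tested genes, only 1.28% were higher and 5.17% lower there.

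Male wild-type BALB/c mice aged 5 to 6 weeks were shaved on the back and divided among 3 groups, each with 4 sequenced samples of back skin from day 10. All 3 groups thus shared strain, sex and shaving. The control group received petroleum jelly according to the study's methods, while its label gives only "white space handling". The IMQ + NS group received imiquimod (IMQ) cream, which activates toll-like receptor signaling and induces psoriasis-like inflammation, for 6 h and then NaCl solution (NS) under gauze and film. The IMQ + BZLF group received the same cream followed by the Banzhilian formula (BZLF), an external preparation of Chinese medicinal materials, under the same cover. Treatment was repeated daily for 10 days. The control group is not described as having been covered, so IMQ and the cover cannot be told apart in comparisons with it, and which dose of BZLF the sequenced mice received is not given in the sources used here. RNA came from whole skin, so fewer cells of a type and less RNA per cell cannot be told apart. Neither the labels nor the methods tie each library to an animal, and the p-values therefore measure the spread between these samples, which may be in part technical.

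The protein NRF2, encoded by Nfe2l2, is a transcription factor that is held at a low level by KEAP1, an adaptor that passes it to a ubiquitin ligase for degradation. Oxidants and electrophiles modify cysteines of KEAP1, whereupon NRF2 accumulates, pairs with a small MAF protein and binds antioxidant response elements near genes for glutathione synthesis, thioredoxin recycling and heme breakdown. Because this control acts on the protein, the mRNA of Nfe2l2 need not follow the activity of NRF2. In skin, NRF2 is known for protecting keratinocytes against oxidants and ultraviolet light.

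The starts of the genes are shown because core letters of the antioxidant response element can be looked for in them. The core letters TGACNNNGC were searched on both strands in RefSeq windows of GRCm38.p6 from 250 bases before to 50 bases after each annotated start, and were found for 4 of the 6 members with a window (Nfe2l2, Gclm, Txnrd1 and Srxn1), but not for Keap1 or Slc7a11. Of all 32851 windows, 12.4% held these letters, as did the windows of 16.7% of the 12074 tested genes with a window. The letters TGATGCAA of the amino acid response element, to which ATF4 is known to bind, were found for Slc7a11 alone among the 6, on either strand, and in 0.9% of all windows. The 250 bases before the start are printed 5′ to 3′ on the strand of the gene, with the matching letters in capitals (for Gclm, Txnrd1, Srxn1 and the second match of Slc7a11 the match is on the opposite strand, so the letters read as the reverse complement).
Nfe2l2, chr2:75704664-75704913, minus strand: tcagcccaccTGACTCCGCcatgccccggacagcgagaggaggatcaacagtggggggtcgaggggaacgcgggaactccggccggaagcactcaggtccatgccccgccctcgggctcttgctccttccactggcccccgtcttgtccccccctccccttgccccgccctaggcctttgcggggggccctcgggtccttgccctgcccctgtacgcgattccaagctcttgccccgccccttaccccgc
Gclm, chr3:122245307-122245556, plus strand: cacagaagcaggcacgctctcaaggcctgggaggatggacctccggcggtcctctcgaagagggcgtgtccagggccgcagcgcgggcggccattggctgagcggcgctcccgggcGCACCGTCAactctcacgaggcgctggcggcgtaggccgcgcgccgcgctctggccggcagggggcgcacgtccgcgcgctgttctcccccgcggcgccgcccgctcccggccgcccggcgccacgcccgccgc
Txnrd1, second of its 3 starts, chr10:82858956-82859205, plus strand: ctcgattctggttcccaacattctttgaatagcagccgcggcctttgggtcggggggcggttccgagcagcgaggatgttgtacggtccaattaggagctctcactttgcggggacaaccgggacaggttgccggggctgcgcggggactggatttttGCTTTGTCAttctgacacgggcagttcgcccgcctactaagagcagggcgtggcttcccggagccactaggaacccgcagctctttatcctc
Slc7a11, chr3:50443614-50443863, minus strand: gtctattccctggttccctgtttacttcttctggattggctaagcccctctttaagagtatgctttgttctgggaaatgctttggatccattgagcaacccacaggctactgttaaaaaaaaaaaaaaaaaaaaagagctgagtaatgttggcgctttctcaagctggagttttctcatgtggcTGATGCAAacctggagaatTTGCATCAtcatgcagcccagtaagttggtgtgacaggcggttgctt
For Srxn1 the match began 29 bases after the start, and only 30 bases around it are shown.
Srxn1, chr2:152105542-152105571, plus strand: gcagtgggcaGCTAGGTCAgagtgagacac
The match began 240 bases before the start of Nfe2l2, 134 bases before that of Gclm and 92 bases before that of Txnrd1. In Slc7a11 the matches began 66 and 47 bases before the start. The printed stretches lie just upstream of the annotated start, except that of Srxn1, which lies in the transcribed part. The stretch of Txnrd1 lies inside the gene as counted from its most upstream start. Windows for Gclc and Hmox1 were not used here. A match describes letters only and does not show that a factor was bound.

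Each value is the FPKM of a gene, that is, fragments scaled to transcript length and to the mapped fragments of the sample, as deposited. Genes were compared with limma on log2(FPKM + 0.1) across the 15288 genes with a mean of at least 0.1 FPKM, and a gene was called at a Benjamini-Hochberg adjusted p below 0.05. The added constant understates the change of genes with a low FPKM. The sequencing depth cannot be read from FPKM values, so the precision rests on the 4 samples per group. Control replicate 2 stood apart from the other controls, with a score of -63.2 on the first principal component (76.4% of the variance), where the other controls scored -116 to -122 and the IMQ-treated samples 43.4 to 62.3. Its summed FPKM of 5 hair shaft keratins was 272, against 6.24 to 19.9 in the other controls and 3056 to 5913 in the IMQ-treated samples. Epidermal keratinocyte markers were present in all samples (summed FPKM of 5 keratinocyte genes from 1841 to 7578). Values without control replicate 2 are given beside the comparisons of the 8 genes with control and beside those of other genes whose value they move most.

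**Figure D1:**
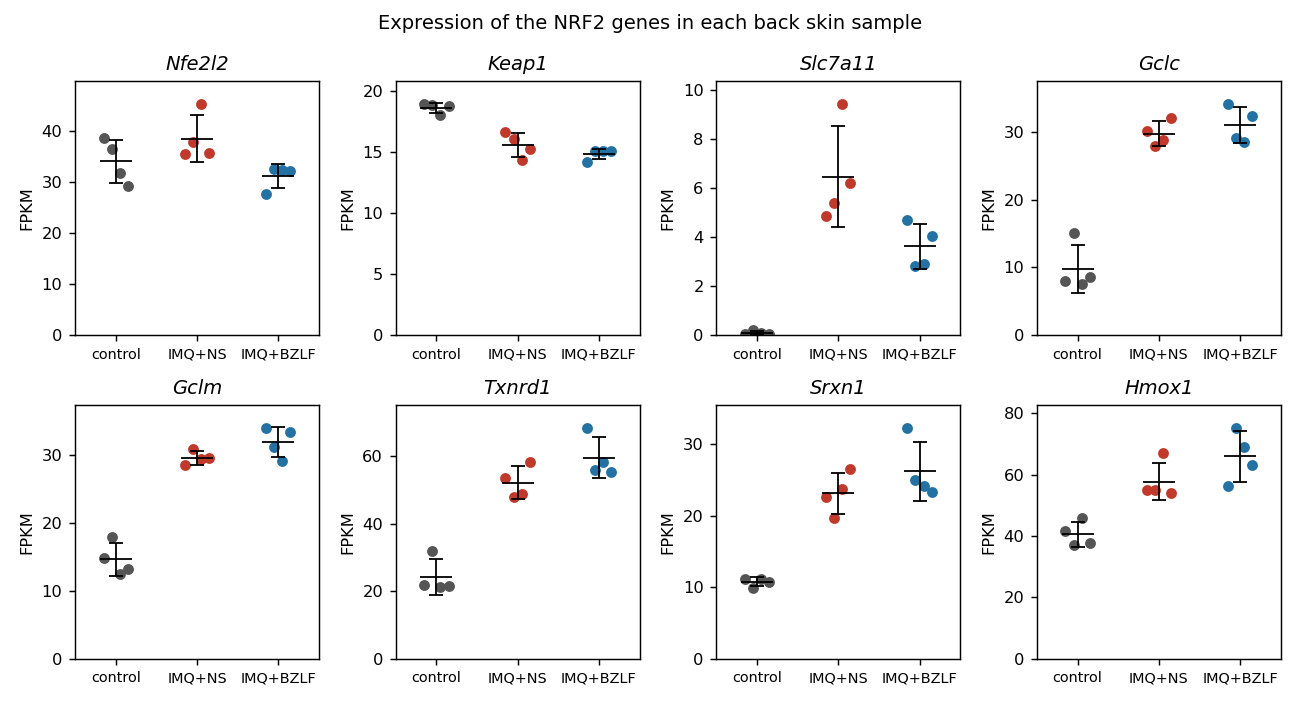
Expression of each of the 8 genes in FPKM (linear axis from 0) by group; points are the 4 samples of a group in the order of their numbers, the long bar is the mean and the whisker the SD. Slc7a11, Gclc, Gclm, Txnrd1, Srxn1 and Hmox1 lie above all controls in both IMQ-treated groups, Keap1 lies below them, and Nfe2l2 overlaps the controls.

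The sensor and the factor were examined first. Nfe2l2 (chr2:75675513-75704641, minus strand, GRCm38) had 38.6, 36.6, 31.9 and 29.3 FPKM in the control samples, 35.5, 37.8, 45.3 and 35.7 FPKM in the IMQ + NS samples and 27.7, 32.5, 32.4 and 32.3 FPKM in the IMQ + BZLF samples. Both IMQ-treated groups overlapped the control group, whereas all 4 IMQ + BZLF samples lay below all 4 IMQ + NS samples. The log2 fold change of IMQ + NS against control was 0.18 (95% interval -0.08 to 0.44, adjusted p = 0.214 from limma), or 0.22 without control replicate 2. For IMQ + BZLF against IMQ + NS it was -0.30 (-0.50 to -0.10, adjusted p = 0.0867 from limma), which did not pass the test. In that comparison the groups did not overlap for 15.2% of all tested genes.

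Keap1 (chr9:21229730-21239361, minus strand) was the only one of the 8 genes to fall. Its FPKM was 18.9, 18.8, 18.02 and 18.8 in the control samples, 16.6, 16.1, 14.3 and 15.3 in the IMQ + NS samples and 14.2, 15.1, 15.1 and 15.05 in the IMQ + BZLF samples. Every IMQ-treated sample lay below every control. The fall was small, with a log2 fold change of -0.26 (SE 0.07, adjusted p = 0.0153 from limma) in IMQ + NS and -0.33 (SE 0.07, adjusted p = 0.00376 from limma) in IMQ + BZLF samples against control, or -0.25 and -0.32 without control replicate 2. Between the IMQ-treated groups the log2 fold change was -0.07 (-0.20 to 0.07). The ratio of Nfe2l2 to Keap1 FPKM was 1.83 ± 0.212 in control skin, 2.49 ± 0.457 in the NS lesions and 2.10 ± 0.0986 in the BZLF lesions (SD, n = 4). The highest control (2.04) lay below the lowest NS lesion (2.13), while the BZLF lesions (1.955 to 2.16) overlapped both.

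Cystine import showed the widest change. Slc7a11 (chr3:49892526-50443614, minus strand) encodes the light chain of the cystine-glutamate exchanger, which brings in the cystine from which glutathione is made. It had 0.0590, 0.209, 0.0794 and 0.0607 FPKM in the control samples, 4.89, 5.39, 9.44 and 6.21 FPKM in the IMQ + NS samples and 4.71, 2.82, 2.91 and 4.07 FPKM in the IMQ + BZLF samples. The controls were near the bottom of the scale, and the highest BZLF sample lay below the lowest NS sample. The log2 fold change against control was 5.04 (SE 0.28, adjusted p = 3.1e-06 from limma) in IMQ + NS and 4.23 (SE 0.27, adjusted p = 9.5e-06 from limma) in IMQ + BZLF samples. Without control replicate 2 the values were 5.26 and 4.46. The size of the change depended on the constant because of the low controls, from 2.73 with a constant of 1 to 5.99 with a constant of 0.01 in IMQ + NS samples.

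After BZLF, Slc7a11 had a log2 fold change of -0.81 against IMQ + NS samples (SE 0.23, 95% interval -1.32 to -0.29, adjusted p = 0.0722 from limma), which missed the threshold. It was the largest difference in size among the 8 genes in that comparison. Without IMQ + BZLF replicate 1 the value was -0.94 and passed (adjusted p = 0.0477 from limma), and over all alternatives the adjusted p ranged from 0.0477 to 0.184. Slc3a2, the heavy chain of the same exchanger and named here after its values were seen, rose from a mean of 10.9 FPKM in control to 24.0 in IMQ + NS samples (log2 fold change 1.15) and stood at 24.6 after BZLF (0.03 against IMQ + NS, -0.17 to 0.24).

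The enzyme that sets the pace of glutathione synthesis has a catalytic subunit, encoded by Gclc, and a modifier subunit, encoded by Gclm. Gclc (chr9:77754535-77794485, plus strand) had 7.96, 15.1, 7.55 and 8.54 FPKM in control, 30.2, 28.0, 28.8 and 32.15 FPKM in IMQ + NS and 34.2, 29.2, 28.6 and 32.3 FPKM in IMQ + BZLF samples. On the log2 scale control replicate 2 was about midway between the other controls and the lesions, while in FPKM it was nearer to the other controls. The IMQ-treated groups covered about the same range. The log2 fold change of IMQ + NS against control was 1.65 (SE 0.20, adjusted p = 2.3e-04 from limma), or 1.88 without control replicate 2.

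Gclm (chr3:122245557-122270732, plus strand) had 14.9, 17.9, 12.4 and 13.3 FPKM in control, 28.5, 30.9, 29.3 and 29.5 FPKM in IMQ + NS and 34.0, 31.15, 29.03 and 33.3 FPKM in IMQ + BZLF samples. No IMQ-treated sample came near the controls. Its log2 fold change in IMQ + NS against control was 1.02 (SE 0.11, adjusted p = 1.3e-04 from limma). The ratio of Gclc to Gclm FPKM was 0.658 ± 0.132 in control skin, 1.01 ± 0.083 in the NS lesions and 0.974 ± 0.0289 in the BZLF lesions (SD, n = 4), with control replicate 2 at 0.844 the highest control and every lesion above it. Both subunits rose, the catalytic one by more, and this held without control replicate 2 (1.88 and 1.13). After BZLF neither differed from IMQ + NS lesions beyond the spread, with log2 fold changes of 0.06 (-0.10 to 0.22) for Gclc and 0.11 (-0.03 to 0.24) for Gclm.

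Of the genes around thioredoxin, Txnrd1 and Srxn1 are members. Txnrd1, the cytosolic thioredoxin reductase (chr10:82833951-82897712, plus strand), had 21.9, 32.1, 21.2 and 21.5 FPKM in control, 53.65, 47.9, 48.7 and 58.3 FPKM in IMQ + NS and 68.4, 56.0, 58.2 and 55.45 FPKM in IMQ + BZLF samples. The groups did not overlap with the controls, of which replicate 2 was again the highest. The log2 fold change of IMQ + NS against control was 1.13 (SE 0.14, adjusted p = 2.7e-04 from limma), or 1.27 without control replicate 2. Against IMQ + NS, the value after BZLF was 0.19 (-0.01 to 0.39), not called.

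Srxn1 (chr2:152105516-152111376, plus strand) encodes sulfiredoxin, which restores overoxidized peroxiredoxins. It had 11.2, 9.88, 11.2 and 10.8 FPKM in control, 22.5, 19.6, 23.7 and 26.5 FPKM in IMQ + NS and 32.2, 25.0, 24.1 and 23.2 FPKM in IMQ + BZLF samples. Control replicate 2 was the lowest control here, unlike for Gclc and Txnrd1. Srxn1 rose by a log2 fold change of 1.09 in IMQ + NS samples (SE 0.10, adjusted p = 5.7e-05 from limma), or 1.05 without control replicate 2, and its value after BZLF against IMQ + NS was 0.17 (-0.10 to 0.44).

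Hmox1 (chr8:75093621-75100589, plus strand) encodes the inducible heme oxygenase, which breaks heme down into biliverdin, iron and carbon monoxide. It had 41.5, 36.9, 46.0 and 37.7 FPKM in control, 55.0, 55.0, 66.9 and 54.1 FPKM in IMQ + NS and 56.2, 75.2, 69.1 and 63.05 FPKM in IMQ + BZLF samples. All lesions lay above all controls, by less than for the genes of glutathione and thioredoxin. The log2 fold change against control was 0.51 (SE 0.10, adjusted p = 0.00279 from limma) in IMQ + NS and 0.70 (SE 0.11, adjusted p = 0.00115 from limma) in IMQ + BZLF samples. Without control replicate 2 the values were 0.47 and 0.65. The difference between the lesion groups was 0.19 (-0.04 to 0.42). The summed FPKM of 8 macrophage genes was 1594 to 2287 in control, 990 to 1513 in IMQ + NS and 665 to 1057 in IMQ + BZLF samples. Lyz2 was the largest part of it (means of 1091, 668 and 514 FPKM). In IMQ + NS against control 7 of the 8 were lower (87.5%, beside 27.1% of all genes) and 1 was higher (12.5%, beside 29.0%). The 1 higher was Adgre1 (28.55 to 46.04 FPKM, log2 fold change 0.70, adjusted p = 0.0016 from limma). The summed FPKM of 5 erythroid genes was 235 to 705, 183 to 239 and 238 to 461. The part of these cells in the level of Hmox1 was not tested.

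**Figure D2:**
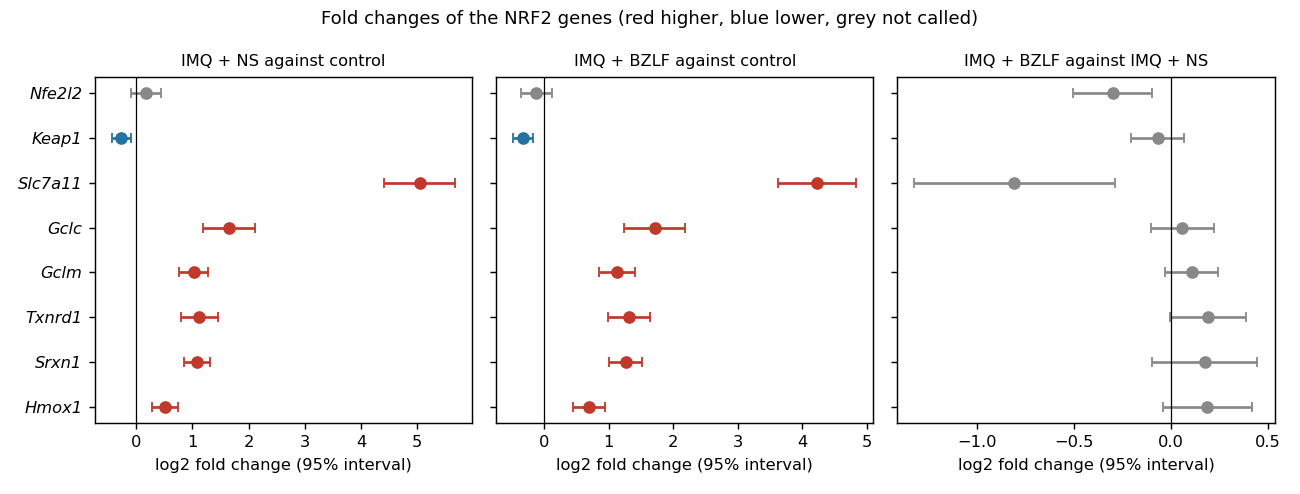
Log2 fold change (axis) of each of the 8 genes with its 95% interval from limma in the 3 comparisons; red marks genes called higher, blue called lower and grey not called. The 6 red genes and Keap1 in blue are the same in both comparisons with control, which share their control samples, and all 8 intervals in the comparison of the lesion groups belong to uncalled genes.

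Counted together, 6 of the 8 genes were higher and 1 was lower in IMQ + NS than in control samples, where 29.0% of all tested genes were higher and 27.1% lower. Of the 6, 5 changed over 2-fold (Slc7a11, Gclc, Gclm, Txnrd1 and Srxn1), as did 11.4% of all genes upward and 11.0% downward. The groups did not overlap for 7 of the 8 genes, Nfe2l2 being the exception, and for 49.4% of all genes. The median log2 fold change of the 8 was 1.06 and that of all tested genes 0.05. In IMQ + BZLF against control samples, which shared the same controls, 6 were again higher (5 over 2-fold) and 1 lower, beside 23.8% (9.65%) and 29.2% (10.1%) of all genes, and the medians were 1.20 and -0.02. The groups did not overlap for the same 7 genes and for 47.5% of all genes. In IMQ + BZLF against IMQ + NS samples limma called 0 of 8 genes, while 1.28% of all genes were higher (0.321% over 2-fold) and 5.17% lower (2.20% over 2-fold). At an unadjusted p below 0.05, 0 were higher and 2 lower (Nfe2l2 and Slc7a11), beside 1217 higher and 2258 lower of all 15288 genes. The counts against control were the same without control replicate 2. Under the scaling with equal sums the median of all genes shifted to -0.115 in IMQ + BZLF against control samples, and the directions and calls of the 8 genes stayed as given under every scaling tried.

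The order of levels also changed. In control skin Hmox1 and Nfe2l2 had the highest means, followed by Txnrd1, Keap1, Gclm, Srxn1, Gclc and Slc7a11. The ranges of Hmox1 and Nfe2l2 overlapped, as did those of Nfe2l2 and Txnrd1 and those of Srxn1 and Gclc. In IMQ + NS samples the order was Hmox1, Txnrd1, Nfe2l2, Gclc, Gclm, Srxn1, Keap1 and Slc7a11, in which only Hmox1 with Txnrd1 and Gclc with Gclm overlapped as neighbours. Among all genes of the table the mean FPKM of Gclc moved from the percentile 69.1 in control to 86.9 in IMQ + NS samples, and that of Slc7a11 from 18.2 to 58.4. In IMQ + BZLF samples Slc7a11 stood at 48.4. Keap1 moved from 81.4 to 76.4 and 76.1.

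Across the 12 samples Gclc followed Txnrd1 and Gclm closely, with a Pearson r of log2(FPKM + 0.1) of 0.99 for both pairs. These samples share the step between control and lesion, so each gene was also taken relative to its group mean. The r of Gclc with Txnrd1 was then 0.92, or 0.71 without control replicate 2 (n = 11), and that of Gclc with Gclm was 0.84, or 0.46 without it. Txnrd1 and Srxn1 had 0.24 relative to the group means and 0.88 without control replicate 2. Hmox1 went the other way, with -0.55 against Gclc and -0.78 without that sample. Nfe2l2 had r between -0.07 and 0.21 with the other members over the 12 samples. Relative to the group means its r was 0.54 with Hmox1 (0.68 without control replicate 2), and it was 0.08 with Gclc and -0.07 with Txnrd1 (-0.53 and -0.54 without that sample). These values are descriptions of few samples.

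By the Pearson r over the 12 samples, not relative to the group means, the genes most alike to each member among 12656 genes with a mean of at least 1 FPKM were named. These r include the step between control and lesion that many genes share, so they do not show a specific link. The lowest r were as strong, such as -0.995 of Gclc with Crebl2 and -0.995 of Slc7a11 with Sel1l3. Gclc was most like Krt32 (r = 0.999), Ly6g6g and Ly6g6d, and Gclm was most like Sema7a (0.994), Krt31 and Krt87. Krt31, Krt32 and Krt87 are keratins of the hair. Txnrd1 was most like Cybrd1 (0.996), Bambi and Smad6, Srxn1 like Osbpl2 (0.991), Bmp2 and Pla2g2e, and Slc7a11 like Jup (0.995) and Zbtb7a. Keap1 was most like Urod (0.967), BC005624 and Mid1ip1, and Hmox1 was most like Gramd3 (0.949) and the cornified envelope genes Lce6a and Crct1. Nfe2l2 was most like Slc45a4 (0.938), Adam17 and Rp2.

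Other tissue parts moved with these genes. The summed FPKM of the 5 hair shaft keratins Krt31, Krt33a, Krt35, Krt85 and Krt86 was 6.24 to 272 in control, 3056 to 4297 in IMQ + NS and 3916 to 5913 in IMQ + BZLF samples. Control replicate 2, the control with the most hair keratin, also exceeded the mean of the other controls on the log2 scale by 0.90 for Gclc, 0.89 for Slc7a11, 0.58 for Txnrd1 and 0.40 for Gclm, but it lay below them for Srxn1 (-0.16) and Hmox1 (-0.17). Within IMQ + NS samples, Gclc and Txnrd1 had the same order of samples as the hair keratins, while Gclm, Srxn1, Slc7a11 and Hmox1 did not. Gclm was highest (30.9 FPKM) in replicate 2, which had the least hair keratin (3056 FPKM). In the IMQ + BZLF group, replicate 1 had the most hair keratin and the highest Gclc, Gclm, Txnrd1, Srxn1 and Slc7a11, but the lowest Hmox1, Nfe2l2 and Keap1. The summed FPKM of 4 hyperproliferative keratinocyte genes was 190 to 616, 2344 to 4207 and 1140 to 1392 in the 3 groups, and was highest in IMQ + NS replicate 3. That sample had the highest Slc7a11, Hmox1 and Nfe2l2 of its group and also the highest sum of 7 neutrophil genes (9892 FPKM). S100a8 (4874 FPKM) and S100a9 (4957 FPKM) made up most of this sum. No gene of these lists was at 0 in all samples of a group. The part of hair growth, keratinocytes and neutrophils in the change of the 8 genes was not tested.

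**Figure D3:**
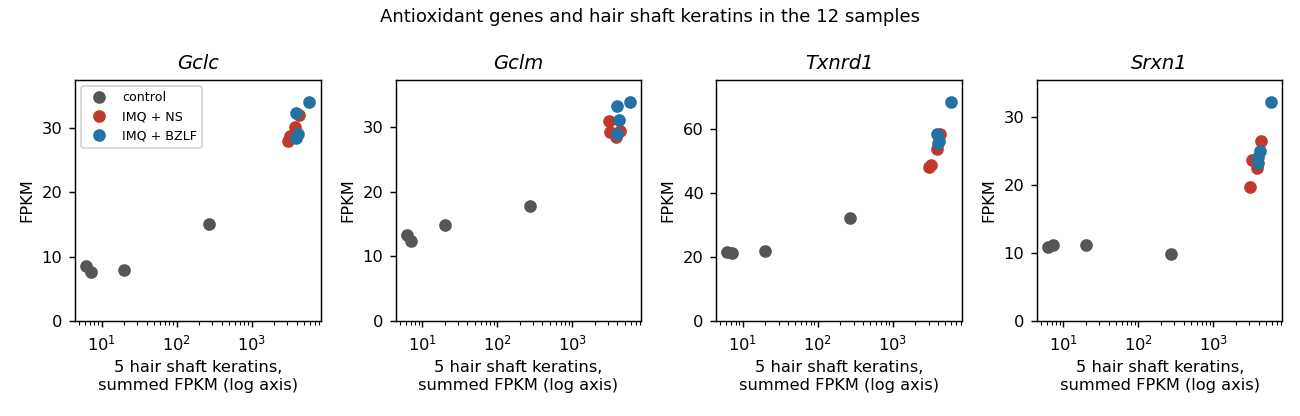
FPKM of Gclc, Gclm, Txnrd1 and Srxn1 (linear vertical axis from 0) against the summed FPKM of 5 hair shaft keratins (log horizontal axis) in the 12 samples, coloured by group. Control replicate 2, at 272 FPKM of hair keratin, lies above the other controls for Gclc, Gclm and Txnrd1 and below them for Srxn1; all IMQ-treated samples lie to the right with 3056 FPKM or more.

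The wider set of antioxidant genes moved in both directions. Of 77 further genes of the antioxidant defense, grouped by role, 75 were tested. In IMQ + NS lesions 20 were higher and 33 lower than in control skin, with a median log2 fold change of -0.25. As shares, 26.7% were higher and 44% lower, beside 29.0% and 27.1% of all genes. Over 2-fold, 9 of the 75 were higher and 16 lower, beside 11.4% and 11.0% of all genes. Without control replicate 2, 23 were higher and 37 lower, and the share of all genes in that fit is not given here. Markers of other parts of the skin also moved. The summed FPKM of 5 skeletal muscle genes was 2675 to 6496 in control, 536 to 1217 in IMQ + NS and 860 to 1167 in IMQ + BZLF samples, and that of 5 adipocyte genes was 3631 to 8151, 1769 to 2789 and 2405 to 2869. Sebaceous gland genes (5) summed to 181 to 292, 24.2 to 82.3 and 49.04 to 107.8 FPKM, and melanocyte genes (6) to 46.6 to 259, 202 to 389 and 272 to 568 FPKM. The part of these cells in the changes of the antioxidant genes was not tested. The plot of these genes by role shows both directions within most groups.

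**Figure D4:**
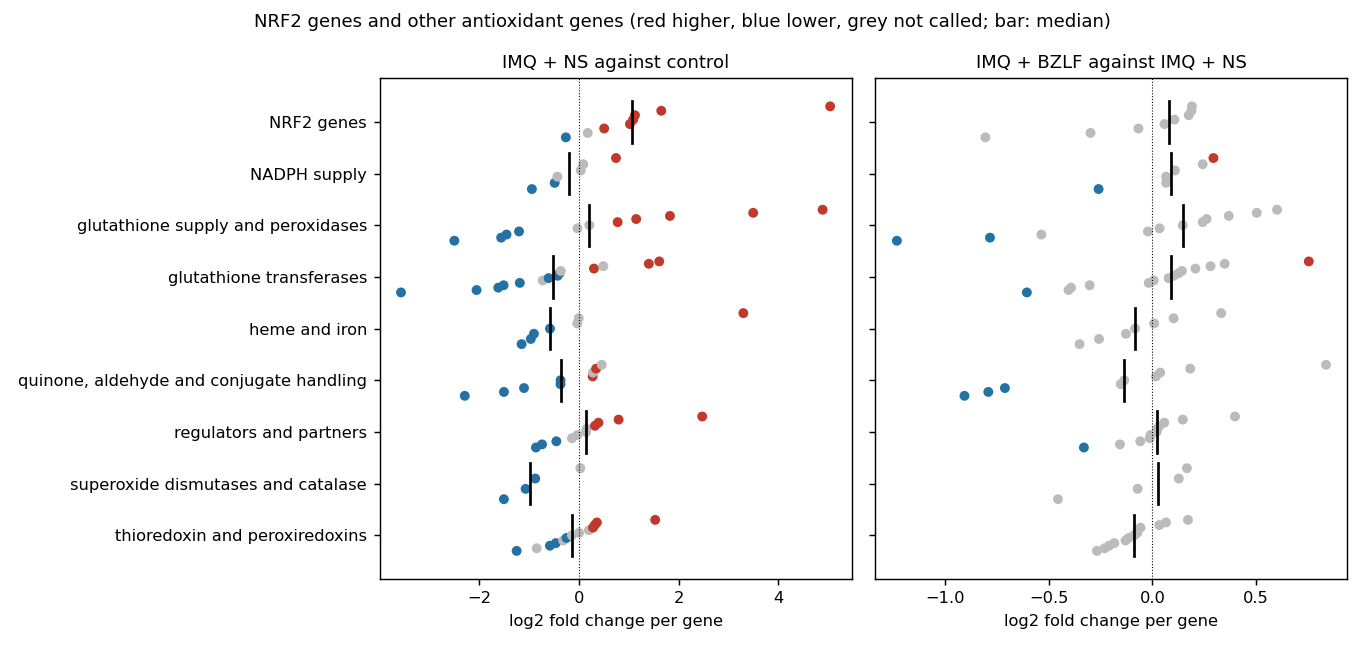
Log2 fold change of each gene (horizontal axis, different scales), on the left for IMQ + NS against control and on the right for IMQ + BZLF against IMQ + NS, for the 8 NRF2 genes and 8 role groups of other antioxidant genes; red is called higher, blue called lower, grey not called, and the black bar is the median of the group. The median of the 8 NRF2 genes is 1.06 on the left and 0.08 on the right.

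Among the 11 genes of glutathione supply and peroxidases, 5 (45.5%) were higher and 4 (36.4%) lower in IMQ + NS samples, beside 29.0% and 27.1% of all genes. Ggt1, which recovers the amino acids of glutathione outside the cell, rose from 1.28 to 11.8 FPKM (log2 fold change 4.89, or 6.10 without control replicate 2, whose 4.88 FPKM was far above the other controls at 0.0203 to 0.108). Gpx2, a glutathione peroxidase of epithelia, rose from 2.01 to 20.9 FPKM (3.50, or 3.91 without control replicate 2). Gpx3, a secreted glutathione peroxidase, fell from 1136 to 188 FPKM (log2 fold change -2.49, or -2.84 without control replicate 2). The reductase Gsr was not called, with a log2 fold change of 0.21 (-0.03 to 0.45), but passed without control replicate 2 (0.30). Gss, which completes glutathione synthesis and was named after its values were seen, rose by 0.78.

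Of the 14 glutathione transferases tested, 3 (21.4%) were higher and 8 (57.1%) lower, beside 29.0% and 27.1% of all genes. Gsta3 fell most, from 64.9 to 4.43 FPKM (log2 fold change -3.56, adjusted p = 6.0e-04 from limma). Control replicate 2 had 15.2 FPKM of Gsta3, far below the other controls, and without it the value was -4.16. Reads of the transferase families may be shared between their similar members. Of 9 genes of quinone, aldehyde and conjugate handling, 2 (22.2%) were higher and 5 (55.6%) lower. Aldh3a1, an aldehyde dehydrogenase of epithelia, fell from 63.3 to 12.1 FPKM, by 2.29 on the log2 scale. Nqo1, a quinone reductase widely used as a sign of NRF2 activity, had 6.20, 3.86, 4.49 and 4.38 FPKM in control and 4.99, 7.14, 8.50 and 5.71 FPKM in IMQ + NS samples. These groups overlapped, and the log2 fold change of 0.46 was not called (0.01 to 0.91, adjusted p = 0.0751 from limma), although it passed without control replicate 1 (0.60) or IMQ + NS replicate 1 (0.58).

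Among 13 genes of thioredoxin and peroxiredoxins, 4 were higher and 4 lower (30.8% each, beside 29.0% and 27.1% of all genes). Txn1, the cytosolic thioredoxin that TXNRD1 reduces, rose from 152 to 190 FPKM (log2 fold change 0.32), and Prdx1 was at 305 and 306 FPKM, a difference near 0 whose sign changed with the scaling. The heme and iron group had 1 of 7 genes (14.3%) higher and 4 (57.1%) lower. The iron exporter gene Slc40a1 rose from 7.63 to 64.7 FPKM (3.30, or 3.74 without control replicate 2), while the ferritin genes Fth1 and Ftl1, named after their values were seen, fell by 1.15 and 0.90. Slc40a1 had 16.2 FPKM in control replicate 2, against 4.11 to 5.54 in the other controls.

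NADPH, which both the glutathione and the thioredoxin arm use, is made by enzymes that did not move together. G6pdx, the entry to the pentose phosphate pathway, rose from 51.05 to 85.3 FPKM (0.75), and the malic enzyme gene Me1 fell from 99.6 to 51.4 FPKM (-0.94). Of the superoxide dismutases and catalase, 0 of 4 rose and 3 (75%) fell, beside 29.0% and 27.1% of all genes. The mitochondrial Sod2 was not called at 27.6 and 28.25 FPKM, with a sign that changed with the scaling. Among the 11 regulators, 4 (36.4%) were higher and 3 (27.3%) lower. Bach1, a repressor that competes for the antioxidant response element, rose from 8.72 to 11.5 FPKM (0.40), and the NRF2 partner Mafg was not called (0.15, and -0.02 under quantile normalization) unless control replicate 2 was left out (0.19). The call of Bach1 was lost under quantile normalization, and that of Txn1 under scaling to equal sums.

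After BZLF, limma called 10 of these genes relative to IMQ + NS. Of the 75 tested, 2 were higher and 8 lower, which are 2.67% and 10.7% beside 1.28% and 5.17% of all genes. Only 1 of the 10, Glrx, changed over 2-fold. Of all genes, 0.321% were higher and 2.20% lower over 2-fold. Glrx, a glutaredoxin, had 47.7, 40.7, 55.2 and 58.1 FPKM in control, 146, 172, 245 and 162 FPKM in IMQ + NS and 56.3, 81.65, 93.3 and 75.8 FPKM in IMQ + BZLF samples. It fell after BZLF by 1.23 on the log2 scale (adjusted p = 0.0078 from limma), with no overlap between the lesion groups.

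Nqo1 had 2.51, 3.64, 3.22 and 4.51 FPKM after BZLF, below all 4 IMQ + NS samples (log2 fold change -0.91, adjusted p = 0.0338 from limma). The call was lost in the 7 fits that left out IMQ + BZLF replicate 1, 2 or 3 or IMQ + NS replicate 2, 3 or 4, or that used no trend, with adjusted p up to 0.0859. Cbr3, a carbonyl reductase, fell from 34.0 to 19.7 FPKM (-0.79). The transferase gene Gstt1 rose from 12.04 to 20.4 FPKM (0.75), still below the control mean of 51.6 FPKM, and was not called with all 12 samples in one fit (adjusted p = 0.0623 from limma). Me1 rose (0.29) and Bach1 fell (-0.33, adjusted p = 0.0414 from limma). The call of Bach1 was lost without any 1 of the 8 samples (adjusted p up to 0.0974), and that of Me1 without any of 6, all but IMQ + BZLF replicate 1 and IMQ + NS replicate 3 (up to 0.0939 from limma). Bach1 was also not called under any of the 3 other scalings, nor Me1 with all 12 samples in one fit (adjusted p = 0.202 from limma). Gsr (0.24), Txn1 (-0.07), Prdx1 (-0.18), Sod2 (-0.07), G6pdx (0.07) and Mafg (-0.01) were not called.

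In IMQ + BZLF against control samples, 17 of the 75 genes were higher and 38 lower, with a median log2 fold change of -0.37. As shares these are 22.7% and 50.7%, beside 23.8% and 29.2% of all genes. Without control replicate 2 the numbers were 19 and 40, and the share of all genes in that fit is not given here. The largest rises were again those of Ggt1 (5.15, or 6.36 without control replicate 2), Slc40a1 (3.63, or 4.07) and Gpx2 (2.96, or 3.37), and the largest falls those of Gsta3 (-3.21, or -3.81), Gpx3 (-2.13, or -2.47) and Gstp2 (-1.61), whose reads may be shared with Gstp1. Gsr was called here (0.45), as were Txn1 (0.25), G6pdx (0.81) and Me1 (-0.65). The call of Txn1 was lost under scaling to equal sums (0.145, adjusted p = 0.116 from limma) and with the replicate number as a block (adjusted p = 0.0582). Nqo1 (-0.45), Prdx1 (-0.18), Sod2 (-0.04), Bach1 (0.06) and Mafg (0.14) were not, though Nqo1 passed without control replicate 2 (-0.53) or IMQ + BZLF replicate 4 (-0.58), Mafg without control replicate 2 (0.18), and Prdx1 under each of the 3 other scalings (-0.16 to -0.32).

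Enzymes that produce oxidants were set beside the NRF2 genes. Of 12 listed, mostly the parts of NADPH oxidases, 11 were tested, and 1 was higher and 4 were lower in IMQ + NS than in control samples (9.09% and 36.4%, beside 29.0% and 27.1% of all genes). Rac2, a subunit of the phagocyte oxidase, rose from 14.1 to 23.2 FPKM (0.70), and the epithelial oxidase gene Duox1 (-0.998) and the xanthine dehydrogenase gene Xdh (-0.40) fell. The call of Xdh was lost without control replicate 1, 3 or 4 or IMQ + NS replicate 1 or 4 (adjusted p up to 0.0624 from limma). After BZLF, 0 were higher and 5 (45.5%) lower than in IMQ + NS samples, beside 1.28% and 5.17% of all genes.

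Rac2 had 17.2, 14.2, 14.4 and 10.7 FPKM in control, 17.8, 19.35, 27.7 and 27.8 FPKM in IMQ + NS and 4.96, 9.05, 9.08 and 8.55 FPKM in IMQ + BZLF samples. It fell after BZLF by 1.55 on the log2 scale, to a level below all controls. Ncf4, another part of the same oxidase, fell from 12.6 to 5.12 FPKM (-1.26). Against control, 0 of the 11 were higher and 10 (90.9%) lower after BZLF, beside 23.8% and 29.2% of all genes, with Duox1 at -1.78 and Ncf4 at -1.01. The summed FPKM of 7 neutrophil genes was 31.9 to 50.6 in control, 3128 to 9892 in IMQ + NS and 62.8 to 83.6 in IMQ + BZLF samples. That of 8 macrophage genes, as given with Hmox1, was 1594 to 2287, 990 to 1513 and 665 to 1057 FPKM, although Adgre1 among them was higher in IMQ + NS than in control samples. In IMQ + NS samples S100a8 and S100a9 made up most of the neutrophil sum (means of 3010 and 2909 FPKM). After BZLF this sum lay above control mainly through S100a8 (mean 45.75 against 14.74 FPKM), while Retnlg lay below control (1.27 against 3.75 FPKM). Of the 7 neutrophil genes 1 was called higher and 1 lower than control after BZLF (14.3% each, beside 23.8% and 29.2% of all genes). The macrophage sum lay below control, with 8 of 8 genes called lower. Phagocytes carry this oxidase, and the part of these cells in the levels of Rac2, Ncf4 and Glrx was not tested.

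Slc7a11 is also known as a target of ATF4, the factor of the amino acid response, so 9 genes of that response were examined. In IMQ + NS samples 4 (44.4%) were higher and 2 (22.2%) lower than in control, beside 29.0% and 27.1% of all genes. Chac1, which degrades glutathione, had 3.70, 3.203, 7.25 and 10.54 FPKM in control, 209, 146, 179 and 200 FPKM in IMQ + NS and 227, 237, 202 and 143 FPKM in IMQ + BZLF samples. It rose by 5.03 on the log2 scale in IMQ + NS and by 5.15 in IMQ + BZLF samples, with no overlap with the controls. The amino acid transporter gene Slc7a5 rose from 10.1 to 31.6 FPKM (1.90, or 2.37 without control replicate 2), and the stress factors Atf3 (-1.91) and Ddit3 (-1.31) fell.

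After BZLF 0 of the 9 genes were higher and 1 (11.1%) was lower than in IMQ + NS samples, beside 1.28% and 5.17% of all genes. The 1 lower was Psat1 of serine synthesis (58.4 to 40.6 FPKM, -0.52). This call was lost when any 1 of IMQ + BZLF replicates 2 and 4 and IMQ + NS replicates 2, 3 and 4 was left out (adjusted p up to 0.0899 from limma). Chac1 was not called in that comparison (0.13, -0.25 to 0.51). Against control, 2 were higher (Chac1 and Slc7a5, 1.76, or 2.24 without control replicate 2) and 2 lower (Atf3, -1.95, and Ddit3, -1.19) after BZLF. These are 22.2% each, beside 23.8% and 29.2% of all genes. The fall of Atf3 in IMQ + NS samples was lost when control replicate 3 or 4 or any IMQ + NS sample was left out (adjusted p up to 0.0689 from limma), and that after BZLF without control replicate 3 or 4 or IMQ + BZLF replicate 1, 2 or 3 (up to 0.0638).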

How the data were processed

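Total RNA-seq of back skin was analysed in 12 samples, 4 per group. The authors deposited FPKM values, 1 per gene and sample. Their own test used DESeq2 on counts, which were not used here. The study's methods describe mirVana extraction, a TruSeq Stranded library, Bowtie2 alignment to transcripts and eXpress, whereas the sample labels name TRIzol and a VAHTS Universal V6 kit, and the submitters' processing notes list fastp, HISAT2, HTSeq, R 3.2.0 and mm10 (GRCm38). Which of these made the table is not settled by the sources used here, and the choice could change the level of genes with similar copies. Each sample's FPKM added up to between 444660 and 506622. Dividing 16634 low values by the lowest one of the same gene gave whole numbers, within 0.05, for 33.4%. Reads were therefore not rebuilt, and the number of reads behind a value is unknown. The study reports the amount of sequence data per sample, which was not used here. In 0 columns the sample was unclear.

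Genes with a mean of at least 0.1 FPKM (15288) were tested on log2(FPKM + 0.1) with limma 3.58.1 (R 4.3.3), trend on expression, pair by pair with 4 and 4 samples, and Benjamini-Hochberg adjustment over all genes. Tables were made with pandas 2.3.3 and plots with matplotlib 3.10.9 in Python 3.11.15, and the scripts were tested on simulated data. Promoter windows are from RefSeq (GRCm38.p6) and gene positions from GENCODE (GRCm38). The members and lists were chosen with earlier results of these data known. Named throughout were the 8 members and Nqo1, Gsr, Txn1, Prdx1, Sod2, G6pdx, Me1, Bach1 and Mafg. From the wider list up to 3 called genes with the largest rise and up to 3 with the largest fall at a mean of at least 1 FPKM were added in each comparison, and up to 2 each from the oxidant and amino acid response lists. Other genes are marked. A gene among those most alike to a member is not reported here. The alternatives were constants of 0.01 and 1, no filter or a mean of at least 1 FPKM, 3 other scalings, all 12 samples in one fit, no trend, a block for the replicate number, robust moderation, calls with a 2-fold limit, and each sample left out in turn.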

Additional observations from a re-analysis of the deposited data

Results flagged for a closer look

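Within-group gaps were checked for the 8 genes in the 24 groups of 4 samples, against Dixon's 95% critical value for the gap to the nearest sample divided by the range. Chance alone flags about 1 in 20 groups. A sample stood far from the others of its group in 7 of the 24. Control replicate 2 was the highest control for Gclc (15.1 FPKM, gap over range 0.869), Txnrd1 (32.1 FPKM, 0.936) and Slc7a11 (0.209 FPKM, 0.864). IMQ + BZLF replicate 1 was the lowest of its group for Nfe2l2 (27.7 FPKM, 0.95) and Keap1 (14.2 FPKM, 0.968). IMQ + NS replicate 3 was the highest of its group for Hmox1 (66.9 FPKM, 0.931), and control replicate 3 was the lowest control for Keap1 (18.02 FPKM, 0.831).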

How the results depend on the processing

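Across the alternatives other than the study's own rule, 455 of 456 values of the 8 genes kept their direction and side of the threshold, and 1 (Slc7a11 after BZLF without IMQ + BZLF replicate 1) passed it. Under the study's rule (unadjusted p and over 2-fold), 20 of 24 were the same and 4 lost their call, Keap1 and Hmox1 in both comparisons with control. With a 2-fold limit, on adjusted or on unadjusted p, the members lower went from 1 to 0 in both comparisons with control. The wider list then gave 9 higher and 16 lower in IMQ + NS against control. It gave 0 and 1 in IMQ + BZLF against IMQ + NS, and 7 and 14 in IMQ + BZLF against control. On adjusted p, the shares of all genes were 11.4% and 11.0%, 0.321% and 2.20%, and 9.65% and 10.1% in these comparisons. In IMQ + BZLF against IMQ + NS, the wider genes higher numbered 1 with no filter, 0 with all samples in one fit and 1 without a trend, and those lower 5 under median ratio scaling, equal sums and no trend. Leaving out 1 sample gave 0 to 1 members lower, 1 to 6 wider genes higher (6 without IMQ + BZLF replicate 1) and 4 to 9 lower. Signs of uncalled genes reversed in IMQ + NS against control for Prdx1 (-0.035 median ratio, -0.127 equal sums, -0.217 quantile, -0.035 to 0.053 leaving out 1 sample), Sod2 (-0.01, -0.102, -0.054, -0.023 to 0.082) and Mafg (-0.02 quantile), after BZLF for Mafg (0.046, 0.02, 0.044, -0.036 to 0.009) and G6pdx (-0.032 to 0.13), and in IMQ + BZLF against control for Bach1 (-0.039 equal sums, -0.048 quantile); the cause was not tested. Of all calls in IMQ + NS against control 51.7% were higher, but 38.7% with equal sums and 42.9% with quantile normalization; in IMQ + BZLF against IMQ + NS 19.8%, but 33.8% with median ratio scaling and 32% with quantile normalization; in IMQ + BZLF against control 44.9%, but 34.9% with equal sums. Samples with the same number had r from -0.224 to 0.378, and those with unlike numbers from -0.353 to 0.342. The highest r was that of replicates 4 of the lesion groups. With 4 samples per group these values cannot settle whether the numbers pair the samples. With the replicate block 6 members were higher and 1 lower against control in both lesion groups, and 0 changed between them; of the wider list 18 and 31, 2 and 8, and 16 and 34 were called. The block ended the calls of Me1 and Bach1 after BZLF (adjusted p of 0.0579 and 0.0691 from limma) and of Txn1 in IMQ + BZLF against control (0.0582). FPKM without counts sets no limit from depth, and the 4 samples per group limit the precision.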
